A study of Mus musculus with 15 samples.

Results

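The genes with Nduf symbols encode most of the nuclear part of respiratory complex I, and their transcripts were followed in mouse inguinal fat through CL treatment and ageing. A gene was taken where its symbol starts with Nduf and where it reached at least 1 CPM (library-scaled count, in the usual per-million unit) in at least 3 libraries. The deposited table lists 24015 genes, 45 of them with an Nduf symbol, and all 45 passed that minimum. They also passed the low-count filter of the test, which kept 15288 genes. Ndufaf6, Ndufa4l2 and Ndufb4 came closest to the minimum, with third-highest values of 10.04, 10.4 and 10.8 CPM, so no gene lies just inside the threshold and none outside it.

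Complex I (NADH:ubiquinone oxidoreductase) takes electrons from NADH, passes them along a chain of iron-sulfur clusters to ubiquinone and pumps protons across the inner mitochondrial membrane. Its peripheral arm, which reaches into the matrix, holds the NADH site and the clusters, and its membrane arm pumps the protons. The core subunits of the peripheral arm are nuclear-encoded, those of the membrane arm come from mitochondrial DNA, and accessory subunits surround both arms. Assembly factors build the enzyme from preformed modules and are absent from the finished complex. Brown and beige adipocytes are rich in mitochondria, and their thermogenic respiration draws on the electron transport chain. Here 36 of the 45 genes encode subunits: 7 core subunits of the peripheral arm, 10 accessory subunits of that arm, 9 of the proximal membrane arm and 10 of the distal membrane arm. A further 7 encode assembly factors. Ndufa4 and Ndufa4l2 carry the name without belonging to the enzyme: Ndufa4 is now counted as a subunit of complex IV, and Ndufa4l2 is its hypoxia-inducible relative. The mitochondrially encoded subunits were not analysed here.

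PolyA RNA came from inguinal adipose tissue of C57BL/6 mice aged 2 or 12 months, all kept at thermoneutrality for 2 weeks and injected intraperitoneally with CL or with vehicle for 5 days. The 4 groups are Young_Ctrl (2 months, vehicle, n = 4), Young_CL (2 months, CL, n = 4), Old_Ctrl (12 months, vehicle, n = 3: replicates 1, 3 and 4) and Old_CL (12 months, CL, n = 4). In the labels CL stands for cardiolipin, but the same letters commonly denote a β-adrenergic agonist that induces beige adipocytes. The compound is therefore left undetermined and called CL throughout. Nothing in the labels says whether replicates are separate animals, so p-values reflect the spread between these samples, which may be technical. All mice were at thermoneutrality, so no group shows the tissue at ordinary housing temperature.

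Total counts per library ran from 6115542 to 51577001. Some libraries stand apart. The 15 skeletal muscle markers, none of them at 0 in any library, had a mean log2 CPM of 6.73 to 7.75 in Young_CL 1, 2 and 3, Old_Ctrl 3 and Old_CL 3, against 1.79 to 4.56 in the 10 other libraries. Old_CL 1, 2 and 4 formed the closest pairs of any group, with a robust SD of log2 ratios of 0.0636 to 0.0933 against 0.116 to 0.747 in the 18 other pairs. They still differed by more than sampling noise and were kept as 3 samples. Muscle is itself rich in complex I, so each main result is also given without the 5 muscle-rich libraries. That fit keeps 1 Young_CL, 2 Old_Ctrl and 3 Old_CL libraries and calls fewer genes in all. Markers of adipocytes, the defining cells of the labelled tissue, were all expressed (12 of 12), with summed levels of 15500 to 63353 CPM. In whole tissue, fewer cells of a type and less RNA per cell cannot be told apart.

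The stretches of 250 bases upstream of the start are shown for Ndufv1, which had the largest rise with CL in young fat, and for Ndufb4 and Ndufa5, whose CL changes differed most between the ages. They are RefSeq promoters on GRCm38.p6, printed 5′ to 3′ on the gene's strand, which is the minus strand for all 3: chr19:4012756-4013005, chr16:37654369-37654618 and chr6:24527691-24527940. Capitals mark matches to the site of nuclear respiratory factor NRF1, a regulator of respiratory genes (GCGCA, any base, then GCGC), or to TNAAGGTCA, the single site of the oestrogen-related receptors (ERR).
Ndufv1: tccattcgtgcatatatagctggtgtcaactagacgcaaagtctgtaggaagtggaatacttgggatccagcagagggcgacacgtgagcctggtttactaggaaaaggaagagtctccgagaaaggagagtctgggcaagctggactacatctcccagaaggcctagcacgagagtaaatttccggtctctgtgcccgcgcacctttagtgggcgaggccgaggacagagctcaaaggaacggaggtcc
Ndufb4: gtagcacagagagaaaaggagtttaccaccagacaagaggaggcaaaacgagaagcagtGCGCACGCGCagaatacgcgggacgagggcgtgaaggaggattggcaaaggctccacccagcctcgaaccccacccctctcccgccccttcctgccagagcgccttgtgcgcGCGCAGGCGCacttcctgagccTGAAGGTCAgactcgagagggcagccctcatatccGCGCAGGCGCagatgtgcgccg
Ndufa5: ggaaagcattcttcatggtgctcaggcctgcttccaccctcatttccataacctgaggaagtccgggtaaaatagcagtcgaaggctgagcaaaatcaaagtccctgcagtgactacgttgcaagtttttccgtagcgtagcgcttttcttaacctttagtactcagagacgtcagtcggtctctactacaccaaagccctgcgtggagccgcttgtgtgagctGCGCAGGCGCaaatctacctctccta
The Ndufb4 stretch holds 3 matches to the NRF1 site, whose first bases lie 191, 79 and 22 bases before the start, and 1 ERR site at 57 bases. Ndufa5 has 1 NRF1 match, 26 bases before the start, and Ndufv1 has none to either. RefSeq promoters were matched for 39 of the 45 genes. On both strands, 7 of the 39 (17.9%) held the NRF1 site: Ndufb4, Ndufa5, Ndufa8, Ndufa11, Ndufs5, Ndufs6 and Ndufaf4. Of all 27025 genes with promoters of the same length, counted in the same way, 4.23% did. These include genes outside the 15288 tested, and the share among tested genes was not computed. The ERR site stood in Ndufb4 alone of the 39 (2.56%, against 1.30% of all genes). CCGGAAG, an ETS site, stood in 4 (10.3%, against 7.83% of all genes). AAGATGGCG, a YY1 site, stood in 0 (0.7105% of all genes), and TATAAA in 4 (10.3% against 14.3%). A match is a string of letters and not evidence of binding.

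Treatment of young mice with CL was followed by higher levels of every Nduf gene. All 45 rose (edgeR adjusted p below the 0.05 threshold), where 21.7% of all tested genes were called higher. The median log2 change was 1.64, a 3.11-fold rise, against -0.07 over all tested genes, and single genes ran from 0.69 to 2.20. For 44 of them every Young_CL library exceeded every Young_Ctrl library, which held for 18% of all tested genes. Ndufa4l2 was the one whose groups overlapped. Summed over the 36 subunits, the level was 2112 to 3216 CPM in Young_Ctrl and 6920 to 9251 CPM in Young_CL.

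The 7 core subunits rose with a median log2 change of 1.78. Ndufv1, which binds NADH and the flavin that first receives its electrons, stood at 145, 107, 87.6 and 80.9 CPM in Young_Ctrl 1 to 4 and 516, 508, 390.2 and 510.1 CPM in Young_CL 1 to 4. It had the largest change of all 45 genes, 2.20 ± 0.17 log2 (edgeR adjusted p = 1.34e-07). Even its lowest Young_CL library, replicate 3, was well above the highest vehicle library. Ndufv2, its partner subunit with an iron-sulfur cluster, stood at 110.5, 72.98, 90.3 and 85.4 CPM on vehicle and 353, 317, 243 and 322 CPM on CL in libraries 1 to 4 of each young group and changed by 1.78 ± 0.13 log2 (edgeR adjusted p = 1.16e-07). Ndufs1, the largest core subunit and the carrier of several clusters, stood at 144, 95.5, 101 and 92.6 CPM on vehicle and 409.99, 348, 316 and 428 CPM on CL and changed by 1.80 ± 0.15 log2 (edgeR adjusted p = 2.36e-07). Both sets of libraries were far apart, and vehicle replicate 1 was the highest of its group for all 3 genes. Ndufs7, which holds the last cluster of the chain close to the ubiquinone site, stood at 109, 99.03, 80.7 and 70.7 CPM on vehicle and 292, 299.95, 218 and 243 CPM on CL, with the smallest change of the core, 1.56 ± 0.14 log2 (edgeR adjusted p = 6.08e-07). Ndufs8 carries the clusters just before it. Its libraries stood at 73.1, 51.5, 40.7 and 41.4 CPM on vehicle and 167, 155, 139 and 169 CPM on CL (1.62 ± 0.15 log2, edgeR adjusted p = 6.87e-07). Ndufs3, a core subunit without a cluster, stood at 94.1, 63.2, 61.9 and 57.7 CPM on vehicle and 262, 239, 195 and 248 CPM on CL (1.78 ± 0.15 log2, edgeR adjusted p = 3.00e-07). It shares 39.7% of its 50-base windows with another gene model, so its counts are uncertain.

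Accessory subunits moved by similar amounts in each part of the enzyme. The median log2 change was 1.70 over the 10 of the peripheral arm, 1.61 over the 9 of the proximal membrane arm and 1.65 over the 10 of the distal arm. On the peripheral arm, Ndufs4, whose loss in mice causes a Leigh-like brain disease, stood at 63.4, 49.4, 57.7 and 53.4 CPM on vehicle and 205, 186, 145 and 159.8 CPM on CL in young libraries 1 to 4 (1.64 ± 0.12 log2, edgeR adjusted p = 8.56e-08). Ndufa5, on the same arm close to the ubiquinone site, stood at 47.6, 31.2, 35.7 and 37.4 CPM on vehicle and 147, 139, 103 and 115 CPM on CL (1.74 ± 0.14 log2, edgeR adjusted p = 1.59e-07). Ndufa2, a thioredoxin-like subunit, stood at 96.7, 94.7, 86.98 and 74.7 CPM on vehicle and 255, 275, 193 and 171 CPM on CL (1.34 ± 0.15 log2, edgeR adjusted p = 4.87e-06). CL libraries 1 and 2 were the highest for these genes, and the lowest CL library was always above the highest vehicle library. The smallest subunit change was that of Ndufa7, at 90.2, 71.2, 53.2 and 54.1 CPM on vehicle and 153, 154, 122 and 126 CPM on CL (1.05 ± 0.15 log2, edgeR adjusted p = 6.48e-05), followed by Ndufa2. Ndufab1, the mitochondrial acyl carrier protein, changed most among the accessory subunits of the arm, by 2.10 ± 0.14 log2 (edgeR adjusted p = 4.80e-08).

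On the proximal membrane arm, Ndufc1, a small membrane-spanning subunit, stood at 37.2, 25.9, 28.3 and 28.3 CPM on vehicle and 156, 142, 94.1 and 111 CPM on CL (2.08 ± 0.16 log2, edgeR adjusted p = 1.07e-07). Ndufa10, with a nucleoside kinase-like fold, stood at 144, 91.8, 71.2 and 74.2 CPM on vehicle and 369, 331, 305 and 449 CPM on CL (1.94 ± 0.20 log2, edgeR adjusted p = 2.48e-06). Ndufa1, an X-linked membrane subunit, stood at 73.5, 50.2, 46.03 and 41.6 CPM on vehicle and 198, 209, 151 and 162 CPM on CL (1.78 ± 0.16 log2, edgeR adjusted p = 6.18e-07). For Ndufa10 the highest library was CL replicate 4, which was poor in muscle transcripts. Ndufs5, which faces the intermembrane space and shares 21.7% of its windows with another gene, stood at 26.05, 17.5, 13.6 and 14.6 CPM on vehicle and 80.98, 78.5, 59.3 and 71.3 CPM on CL (2.05 ± 0.17 log2, edgeR adjusted p = 3.09e-07). On the distal arm, Ndufb8, an antibody target widely used to follow complex I protein, stood at 144, 109, 94.4 and 91.9 CPM on vehicle and 560.4, 555, 372 and 442 CPM on CL (2.14 ± 0.16 log2, edgeR adjusted p = 1.07e-07). Ndufb6 stood at 49.5, 34.7, 37.04 and 30.1 CPM on vehicle and 204, 179, 135 and 147 CPM on CL (2.14 ± 0.17 log2, edgeR adjusted p = 1.55e-07), with 31.6% of its windows shared. Both had the largest changes after Ndufv1. Ndufb4, also of the distal arm, is counted in few reads (22 to 466 per library) and shares 37.0% of its windows with a copy. It stood at 4.21, 3.01, 5.32 and 3.73 CPM on vehicle and 16.4, 16.2, 10.6 and 11.5 CPM on CL (1.76 ± 0.20 log2, edgeR adjusted p = 7.37e-06), with CL replicates 1 and 2 above replicates 3 and 4.

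The 7 assembly factors rose too, with a median log2 change of 0.999. Ndufaf1, part of an assembly complex that also holds Ecsit and Acad9, stood at 19.7, 14.4, 14.1 and 14.5 CPM on vehicle and 38.1, 32.1, 34.6 and 40.4 CPM on CL in young libraries 1 to 4 (1.22 ± 0.14 log2, edgeR adjusted p = 5.73e-06). Ndufaf3 and Ndufaf4 work together on the ubiquinone module. Ndufaf3 stood at 23.3, 15.04, 11.9 and 12.9 CPM on vehicle and 27.5, 28.5, 25.8 and 26.3 CPM on CL (0.81 ± 0.16 log2, edgeR adjusted p = 0.000917), and Ndufaf4 at 21.7, 13.5, 23.95 and 22.1 CPM on vehicle and 46.8, 40.97, 37.3 and 41.8 CPM on CL (1.04 ± 0.15 log2, edgeR adjusted p = 8.48e-05). The call on Ndufaf3 was lost with the 5 muscle-rich libraries left out (edgeR adjusted p = 0.063), and with a lymphoid score (from lymph node and B cell markers, 0.167) or an adipocyte score (0.0789) as a covariate. Ndufaf5, which hydroxylates Ndufs7, stood at 11.4, 9.37, 9.23 and 10.2 CPM on vehicle and 19.1, 19.5, 16.2 and 16.9 CPM on CL (0.84 ± 0.12 log2, edgeR adjusted p = 4.70e-05). Ndufaf7, a methyltransferase, stood at 24.3, 20.97, 18.99 and 19.1 CPM on vehicle and 42.8, 38.6, 35.3 and 38.6 CPM on CL (0.91 ± 0.10 log2, edgeR adjusted p = 3.37e-06). The median change of the 36 subunits was larger, 1.70. The ratio of summed subunit CPM to summed assembly factor CPM was 23.4 to 28.01 in Young_Ctrl and 39.8 to 47.0 in Young_CL, without overlap.

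Ndufa4 moved with the subunits, at 204, 158, 164 and 156 CPM on vehicle and 722, 673, 500.3 and 573 CPM on CL (1.86 ± 0.13 log2, edgeR adjusted p = 7.92e-08). Ndufa4l2 had the smallest change of the 45, at 8.42, 7.74, 5.26 and 4.56 CPM on vehicle and 8.36, 12.2, 10.6 and 10.1 CPM on CL (0.69 ± 0.24 log2, edgeR adjusted p = 0.0273). CL replicate 1 lay below vehicle replicate 1, so its groups overlapped. Its call was lost without Young_Ctrl 3, Young_Ctrl 4, Young_CL 2 or Young_CL 3 (edgeR adjusted p from 0.0522 to 0.0927) and in 4 fits that adjusted for marker scores or left out the muscle-rich libraries (up to 0.707). Muscle transcripts were high in Young_CL 1 to 3 and low in Young_CL 4 (score 2.27), and Young_CL 4 had a summed subunit level of 8204 CPM, between the others. Adipocyte markers were also higher in Young_CL (35155 to 40515 CPM, against 15500 to 37443 in Young_Ctrl), with 8 of 12 called, and 11 of 11 B cell and lymph node markers and 13 of 13 T cell markers were called lower. Of all tested genes 21.7% were called higher and 22.1% lower. The 10 markers of brown and beige adipocytes summed to 82.1 to 245 CPM in Young_Ctrl and 1997 to 2896 CPM in Young_CL, with 9 called higher. With the muscle-rich libraries left out the median over the 45 Nduf genes was 1.54, and all 45 estimates were positive. The median was 1.31 with the lymphoid score as a covariate and 1.28 with the adipocyte score, and 43 Nduf genes were called higher in each. Of all genes 8.11% and 10.3% were called higher in these fits. The markers behind both scores also moved with CL, and what part these cells have in the result was not tested.

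**Figure D1:**
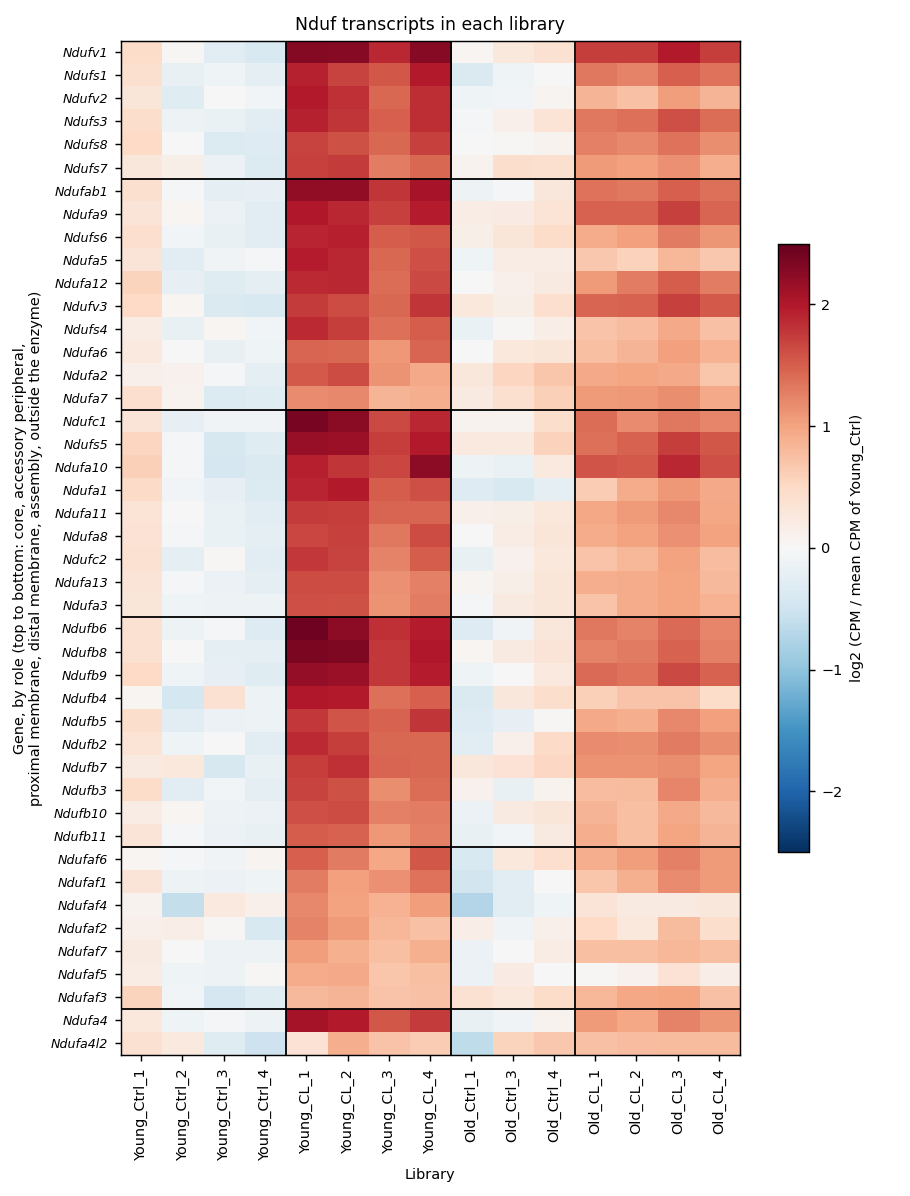
Each row is 1 of 44 Nduf genes, ordered by role, and each column is 1 of the 15 libraries. Colour is the log2 ratio of the gene's CPM to its mean in Young_Ctrl, from blue (lower) to red (higher). The Young_CL block is the darkest, the Old_CL block is lighter, and the Old_Ctrl block is close to the Young_Ctrl block. The bottom row, Ndufa4l2, is among the palest in Young_CL.

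In aged fat CL was also followed by higher Nduf transcripts. Of the 45 genes 41 rose (edgeR adjusted p below 0.05), where 23.1% of all tested genes were called higher, and the remaining 4 were Ndufa2, Ndufb4, Ndufaf5 and Ndufa4l2. The median log2 change was 0.90, a 1.86-fold rise, against -0.01 over all genes, with a range from 0.13 to 1.66. In 43 genes the CL libraries all exceeded the vehicle libraries, against 27.9% of tested genes, and the exceptions were Ndufa2 and Ndufaf5. The summed subunit level was 2468 to 3057 CPM in Old_Ctrl and 5556 to 6454 CPM in Old_CL.

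The core subunits again moved most, with a median of 1.28 and 7 of 7 called. Ndufv1 stood at 108, 127 and 137 CPM in Old_Ctrl 1, 3 and 4 and 350.5, 351, 418 and 347 CPM in Old_CL 1 to 4 (1.56 ± 0.18 log2, edgeR adjusted p = 2.30e-05). Ndufs1 stood at 84.3, 100.01 and 109 CPM on vehicle and 270.4, 257, 303 and 279 CPM on CL in the same libraries (1.4995 ± 0.16 log2, edgeR adjusted p = 1.56e-05). In both genes the muscle-rich replicate 3 was the highest CL library. Ndufs3 stood at 67.9, 75.3 and 87.2 CPM on vehicle and 173, 179, 212 and 182 CPM on CL (1.28 ± 0.16 log2, edgeR adjusted p = 4.12e-05), and Ndufs8 at 51.4, 52.7 and 55.2 CPM on vehicle and 124, 119, 132 and 115 CPM on CL (1.21 ± 0.16 log2, edgeR adjusted p = 5.98e-05). Ndufv2 and Ndufs7 changed least in the core. Ndufv2 stood at 83.7, 85.7 and 94.5 CPM on vehicle and 163, 150.1, 185 and 163 CPM on CL (0.91 ± 0.14 log2, edgeR adjusted p = 0.000205), and Ndufs7 at 95.8, 121 and 118 CPM on vehicle and 188, 182, 198 and 168 CPM on CL (0.72 ± 0.15 log2, edgeR adjusted p = 0.00154). The call on Ndufs7 was lost with the adipocyte score as a covariate (edgeR adjusted p = 0.249).

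Among accessory subunits the spread was wider. The median was 0.78 on the peripheral arm (9 of 10 called), 0.87 on the proximal membrane arm (9 of 9) and 0.98 on the distal arm (9 of 10). Ndufa10 had the largest change of the 45 genes, at 87.5, 84.8 and 112 CPM on vehicle and 284, 276, 352 and 289 CPM on CL (1.66 ± 0.22 log2, edgeR adjusted p = 5.66e-05). Ndufa1 stood at 42.1, 40.8 and 45.2 CPM on vehicle and 82.4, 101, 112 and 102 CPM on CL (1.22 ± 0.18 log2, edgeR adjusted p = 9.93e-05), Ndufc1 at 31.8, 31.9 and 40.8 CPM on vehicle and 78.5, 67.8, 74.3 and 69.7 CPM on CL (1.05 ± 0.17 log2, edgeR adjusted p = 0.000186). In all 3 the lowest CL library was above the highest vehicle library. Ndufb6 stood at 30.1, 35.6 and 46.1 CPM on vehicle and 93.9, 88.9, 101 and 88.1 CPM on CL (1.31 ± 0.18 log2, edgeR adjusted p = 7.24e-05), Ndufb8 at 113, 128 and 137 CPM on vehicle and 258, 269, 303 and 261 CPM on CL (1.11 ± 0.17 log2, edgeR adjusted p = 0.000153) and Ndufs5 at 21.3, 21.3 and 26.6 CPM on vehicle and 46.5, 49.6, 59.7 and 52.9 CPM on CL (1.17 ± 0.18 log2, edgeR adjusted p = 0.000174). Ndufs4 stood at 49.9, 57.3 and 63.2 CPM on vehicle and 91.9, 95.3, 108 and 93.1 CPM on CL (0.77 ± 0.13 log2, edgeR adjusted p = 0.000278). Changes were smaller in 4 further peripheral or distal subunits. Ndufa7 stood at 77.96, 88.6 and 101 CPM on vehicle and 139.7, 142, 150.2 and 129.6 CPM on CL (0.65 ± 0.16 log2, edgeR adjusted p = 0.00487) and Ndufa5 at 35.2, 43.3 and 43.2 CPM on vehicle and 60.5, 56.9, 67.3 and 60.5 CPM on CL (0.59 ± 0.15 log2, edgeR adjusted p = 0.00416). Both calls were lost with the lymphoid score (edgeR adjusted p = 0.15 and 0.117) and with the adipocyte score (0.712 and 0.307) as a covariate. Ndufa2 stood at 107, 129 and 144 CPM on vehicle and 171, 175, 171 and 143 CPM on CL, a difference of 0.38 ± 0.16 log2 (edgeR adjusted p = 0.062). CL replicate 4 lay below vehicle replicate 4, and without either library the call was made (edgeR adjusted p = 0.0496 and 0.0449). Ndufb4 stood at 3.17, 4.93 and 5.49 CPM on vehicle and 6.13, 6.71, 6.64 and 5.56 CPM on CL, a difference of 0.42 ± 0.21 log2 (edgeR adjusted p = 0.122). Its groups touched without overlapping, since CL replicate 4 was barely above vehicle replicate 4.

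Of the assembly factors 6 of 7 rose, with a median of 0.58. Ndufaf1 stood at 11.4, 13.01 and 15.6 CPM on vehicle and 25.5, 28.9, 35.4 and 32.7 CPM on CL (1.19 ± 0.15 log2, edgeR adjusted p = 3.94e-05), close to its change in young fat. Ndufaf7 stood at 18.7, 20.9 and 23.6 CPM on vehicle and 35.2, 35.04, 37.1 and 34.9 CPM on CL (0.75 ± 0.10 log2, edgeR adjusted p = 8.34e-05). Ndufaf3 stood at 20.5, 18.8 and 21.6 CPM on vehicle and 28.03, 30.7, 31.1 and 26.1 CPM on CL (0.52 ± 0.17 log2, edgeR adjusted p = 0.0201), and its call was lost without Old_Ctrl 3 (edgeR adjusted p = 0.0742). Ndufaf4 stood at 12.2, 16.9 and 18.9 CPM on vehicle and 25.5, 23.6, 23.6 and 24.8 CPM on CL (0.58 ± 0.17 log2, edgeR adjusted p = 0.0106), and its call was lost without Old_Ctrl 1 (0.0516). Ndufaf2, a late factor, changed by 0.45 ± 0.16 log2 (edgeR adjusted p = 0.0336) and lost its call without Old_Ctrl 3, Old_Ctrl 4, Old_CL 1 or Old_CL 3 (0.0548 to 0.136). Ndufaf5 hardly differed, at 9.08, 11.7 and 10.2 CPM on vehicle and 10.3, 10.8, 12.96 and 11.3 CPM on CL (0.13 ± 0.13 log2, edgeR adjusted p = 0.411). Outside the enzyme, Ndufa4 stood at 149.9, 161 and 181 CPM on vehicle and 356, 335, 403 and 364 CPM on CL (1.15 ± 0.14 log2, edgeR adjusted p = 3.72e-05). Ndufa4l2 stood at 4.18, 9.57 and 10.3 CPM on vehicle and 10.8, 11.03, 11.2 and 11.2 CPM on CL, a difference of 0.41 ± 0.24 log2 (edgeR adjusted p = 0.187), with vehicle replicate 1 far below replicates 3 and 4. The ratio of summed subunits to summed assembly factors was 28.8 to 28.95 in Old_Ctrl and 37.0 to 38.8 in Old_CL.

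Aged CL fat also had more adipocyte transcripts (51178 to 63353 CPM, against 28738 to 42648 in Old_Ctrl, 10 of 12 markers called higher), and fewer transcripts of macrophages and of progenitor and stromal cells (8 of 11 and 8 of 10 markers called lower). T cell markers (13 of 13, median -1.12) and B cell and lymph node markers (8 of 11) were also called lower, and erythrocyte markers higher (5 of 7). Of all tested genes 22.2% were called lower and 23.1% higher. Brown and beige markers summed to 63.0 to 75.9 CPM in Old_Ctrl and 660 to 816 CPM in Old_CL, with 9 of 10 called higher. With the adipocyte score as a covariate 23 Nduf genes were called higher, with a median of 0.56, and 5.64% of all genes. With the muscle-rich libraries left out the median was 0.82, and all 45 estimates were positive. With the 3 close Old_CL libraries summed 39 Nduf genes were called higher, and 16.4% of all genes. Gene by gene the CL changes at the ages went together: over the 45 genes Pearson's r was 0.742 and Spearman's rho 0.755, against 0.549 and 0.601 over all tested genes. The 2 changes share no library, and genes are not independent replicates, so this is a description only.

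**Figure D2:**
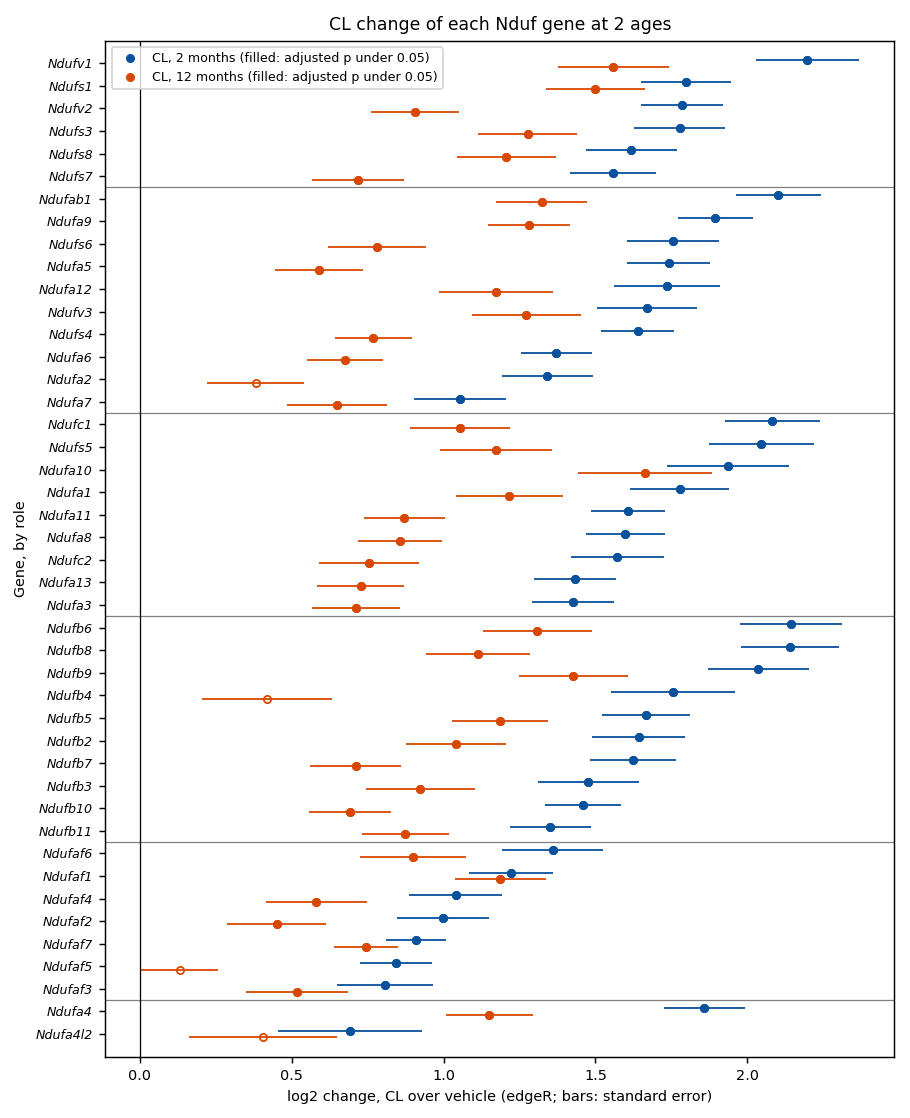
Each row is 1 gene, grouped by role in the same order as in the heat map, and the x axis is the log2 change with CL over vehicle. Points are edgeR estimates at 2 months (blue) and 12 months (orange), bars are standard errors, and filled points have an adjusted p under 0.05. Every blue point lies to the right of the orange point of its gene, and Ndufaf1 has the closest pair (1.22 and 1.19).

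Under vehicle, few Nduf transcripts differed between the ages. Ndufa2 alone was called higher and none lower, where 15.1% and 12.2% of all tested genes were called. The median log2 change was 0.16, against 0.03 over all genes, and single genes ran from -0.32 to 0.52. Ndufa2 stood at 96.7, 94.7, 86.98 and 74.7 CPM in Young_Ctrl 1 to 4 and 107, 129 and 144 CPM in Old_Ctrl 1, 3 and 4 (0.52 ± 0.16 log2, edgeR adjusted p = 0.0249). Its groups did not overlap, which held in 2 of the 45 genes (the other is Ndufb7), against 14% of all tested genes. The call on Ndufa2 was lost without any one of Young_Ctrl 3 or 4 and Old_Ctrl 3 or 4 (edgeR adjusted p = 0.0555 to 0.122). With the lymphoid score as a covariate the difference was -0.03 (edgeR adjusted p = 0.981), and 10 of 11 of those markers were lower in aged fat. The median over the 45 genes then became -0.32. With the adipocyte score it was -0.02, and Ndufa1 alone was called, as lower (-0.53, edgeR adjusted p = 0.0124), where 6.13% of all genes were. With the muscle-rich libraries left out the median was 0.11, and 36 of the 45 estimates were positive.

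The next largest values under vehicle were in Ndufa7 (0.42 ± 0.16 log2, edgeR adjusted p = 0.0648) and Ndufs5 (0.39 ± 0.18 log2, edgeR adjusted p = 0.119). At the other end were Ndufaf4 (-0.32 ± 0.17 log2, edgeR adjusted p = 0.163), Ndufa1 (-0.30 ± 0.17 log2, edgeR adjusted p = 0.206) and Ndufaf1 (-0.21 ± 0.15 log2, edgeR adjusted p = 0.313). For Ndufa1 the values were 73.5, 50.2, 46.03 and 41.6 CPM in young and 42.1, 40.8 and 45.2 CPM in aged vehicle fat, and young replicate 4 lay among the aged libraries. For Ndufa7 they were 90.2, 71.2, 53.2 and 54.1 CPM and 77.96, 88.6 and 101 CPM, and young replicate 1 was above 2 of the aged libraries. Young_Ctrl 1 weighs on this comparison: it was the highest of its group in 40 of the 45 genes and also in adipocyte markers (37443 CPM). Without it 15 Nduf genes were called higher, where the share of all genes called higher also went from 15.1% to 21.8%. Among the 15 were Ndufa7 (edgeR adjusted p = 0.00386), Ndufs5 (0.00432), Ndufaf3 (0.000918) and Ndufv1 (0.0221). Ndufaf4 passed as lower without Young_Ctrl 2 (-0.47, edgeR adjusted p = 0.0187), and Ndufa4l2 as higher without Old_Ctrl 1 (0.64, edgeR adjusted p = 0.0388).

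Between the CL groups the aged level was lower. Of the 45 genes 33 fell and 0 rose (edgeR adjusted p below 0.05), where 19.4% of all tested genes were called lower and 20.5% higher. The median log2 difference was -0.52, against -0.01 over all genes, and the median aged level was 69.7% of the young one. In 29 genes every Old_CL library was below every Young_CL library, against 21.4% of tested genes. All 10 distal membrane subunits fell (median -0.59), as did 8 of 9 proximal subunits (-0.55), 7 of 10 accessory peripheral subunits (-0.46), 4 of 7 core subunits (-0.44) and 3 of 7 assembly factors (-0.27).

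The lowest values were in Ndufb4 (-1.14 ± 0.19 log2, edgeR adjusted p = 0.000379), Ndufa5 (-1.04 ± 0.13 log2, edgeR adjusted p = 3.75e-05) and Ndufv2 (-0.90 ± 0.13 log2, edgeR adjusted p = 0.000114), whose library values are given above. For Ndufa5 the 4 Young_CL libraries ran from 103 to 147 CPM, and the 4 Old_CL libraries from 56.9 to 67.3 CPM. In the core, Ndufs7 (-0.52 ± 0.14 log2, edgeR adjusted p = 0.00785) and Ndufs1 (-0.44 ± 0.14 log2, edgeR adjusted p = 0.024) fell with Ndufv2. Ndufs1 lost its call without Young_CL 1, Young_CL 4, Old_CL 1 or Old_CL 2 (edgeR adjusted p = 0.0562 to 0.0695). Ndufv1 (-0.39 ± 0.16 log2, edgeR adjusted p = 0.0638), Ndufs8 (-0.36 ± 0.14 log2, edgeR adjusted p = 0.0562) and Ndufs3 (-0.34 ± 0.14 log2, edgeR adjusted p = 0.0711) did not pass, and all 3 passed without Young_CL 3 (0.0222 to 0.0274) and with RLE scaling (0.0341 to 0.0454). Young_CL 3 was the lowest library of its group in 40 of the 45 genes. Ndufa2 (-0.44 ± 0.15 log2, edgeR adjusted p = 0.0266) and Ndufs5 (-0.48 ± 0.16 log2, edgeR adjusted p = 0.0278) lost their calls without Young_CL 1, Young_CL 2 or Old_CL 4, and Ndufs5 also without Old_CL 1 or 2 (0.0541 to 0.0999). At the other end, Ndufa4l2 (0.11 ± 0.23 log2, edgeR adjusted p = 0.735), Ndufaf3 (0.10 ± 0.15 log2, edgeR adjusted p = 0.642) and Ndufa7 (0.02 ± 0.15 log2, edgeR adjusted p = 0.946) had positive differences. For Ndufa7 the sign turned with the adipocyte score as a covariate (-0.35, edgeR adjusted p = 0.0295).

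With the 5 muscle-rich libraries left out, the median over the 45 genes was -0.57, 42 of them were negative and 13 were called lower, with the 1 Young_CL library assumed to vary like the other groups. The share of all genes called lower was 4.6% in that fit. With Old_CL 1, 2 and 4 summed 19 were called (median -0.49), and 11.6% of all genes. Markers of brown and beige adipocytes differed in the same direction: they summed to 1997 to 2896 CPM in Young_CL and 660 to 816 CPM in Old_CL, and 9 of 10 were called lower. Of the adipocyte markers in general 6 of 12 were called higher in Old_CL, as were 7 of 7 erythrocyte markers (median 1.31). T cell markers (13 of 13, median -1.09) and B cell and lymph node markers (10 of 11, median -1.004) were called lower. With the lymphoid score as a covariate the median over the 45 genes was -0.94 (37 called lower), and with the adipocyte score -0.78 (42 called lower). Over all genes 6.86% and 12.5% were called lower in these fits. What part these cells have in the difference was not tested.

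**Figure D3:**
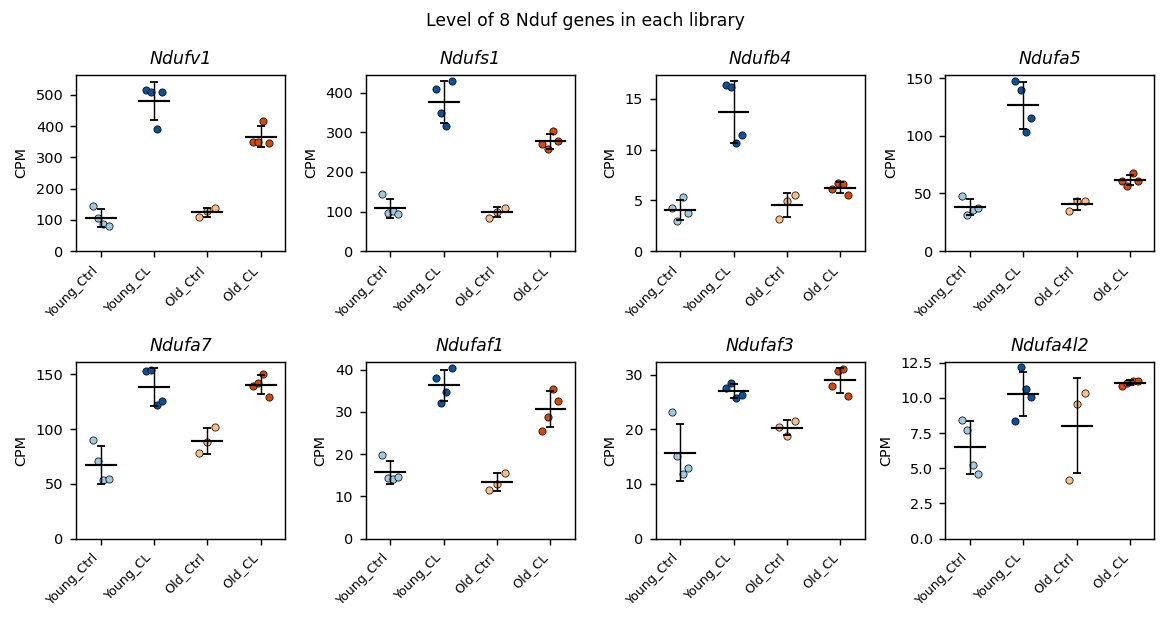
CPM of 8 genes in the 4 groups, each panel with its own y axis from 0. Points are libraries, lines are means and bars are SD. In Ndufs1, Ndufb4 and Ndufa5 the Old_CL points sit between vehicle and Young_CL, and in Ndufa7, Ndufaf3 and Ndufa4l2 they sit at the Young_CL level. In Ndufv1 they lie above vehicle and overlap Young_CL, since Old_CL 3 (417.5 CPM) is above Young_CL 3 (390.2 CPM).

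The interaction asks whether the CL change itself differed between 12 and 2 months. The estimate was negative in all 45 genes, with a median log2 difference of -0.67 (against -0.02 over all tested genes), and 23 passed the test as lower and 0 as higher. Over all genes 3.77% were called lower and 3.31% higher. Both CL changes and both age differences enter this contrast, so it is no separate support for the counts above. The calls fell on 7 of 10 accessory peripheral subunits, 7 of 9 proximal and 5 of 10 distal membrane subunits, 2 of 7 core subunits (Ndufv2 and Ndufs7), 1 of 7 assembly factors (Ndufaf5) and Ndufa4.

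The 5 smallest p-values were those of Ndufa5 (-1.15 ± 0.20 log2, edgeR adjusted p = 0.00451), Ndufs4 (-0.87 ± 0.17 log2, edgeR adjusted p = 0.00971), Ndufc1 (-1.03 ± 0.22 log2, edgeR adjusted p = 0.0145), Ndufb4 (-1.34 ± 0.29 log2, edgeR adjusted p = 0.0155) and Ndufv2 (-0.88 ± 0.19 log2, edgeR adjusted p = 0.0158). For Ndufa5 the CL change was 1.74 in young and 0.59 in aged fat on the log2 scale, and for Ndufb4 1.76 and 0.42. Without Old_Ctrl 4 the calls on Ndufb4 (edgeR adjusted p = 0.0548), Ndufc1 (0.0509) and Ndufa2 (0.0577) were lost. Several single libraries, Old_Ctrl 4 and Young_CL 1 among them, ended the calls on Ndufs7 (0.0528 to 0.0662), Ndufb6 (0.0645 to 0.135), Ndufs5 (0.0602 to 0.121), Ndufaf5 (0.0504 to 0.0578) and Ndufa4 (0.0523 to 0.1). At the other end, the estimates were smallest in Ndufaf1 (-0.03 ± 0.20 log2, edgeR adjusted p = 0.934), Ndufaf7 (-0.16 ± 0.14 log2, edgeR adjusted p = 0.482) and Ndufa10 (-0.27 ± 0.29 log2, edgeR adjusted p = 0.571). Among genes with a promoter match to NRF1 the median interaction was -0.87 (7 genes), and among those without it -0.63 (32 genes). The same groups had median young CL changes of 1.74 and 1.63. Whether these groups differ was not tested, and the counts of Ndufb4 and Ndufs5, both among the 7, are uncertain.

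The number of interaction calls depends on single libraries. It was 4 without Old_Ctrl 4, 9 without Young_CL 1, Young_CL 2 or Old_CL 4, 10 without Old_CL 2, 11 without Old_CL 1, 14 without Young_Ctrl 3, 15 without Young_Ctrl 2 and 36 without Young_Ctrl 1. The share of all genes called lower moved too: it was 1.36% without Old_Ctrl 4, 1.76% to 1.86% without Young_CL 1, Young_CL 2, Old_CL 1, Old_CL 2 or Old_CL 4, 2.5% without Young_Ctrl 3, 2.7% without Young_Ctrl 2 and 6.43% without Young_Ctrl 1. The median over the 45 genes stayed between -0.81 and -0.60 over these 15 fits. With the muscle-rich libraries left out the median was -0.662 and all 45 estimates were negative, while 0 were called by edgeR (28 at an unadjusted p under 0.05) and 0 by limma-voom, and 0.531% of all genes were called lower. With the 3 close Old_CL libraries summed the median was -0.59, and 1 Nduf gene and 0.415% of all genes were called lower.

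**Figure D4:**
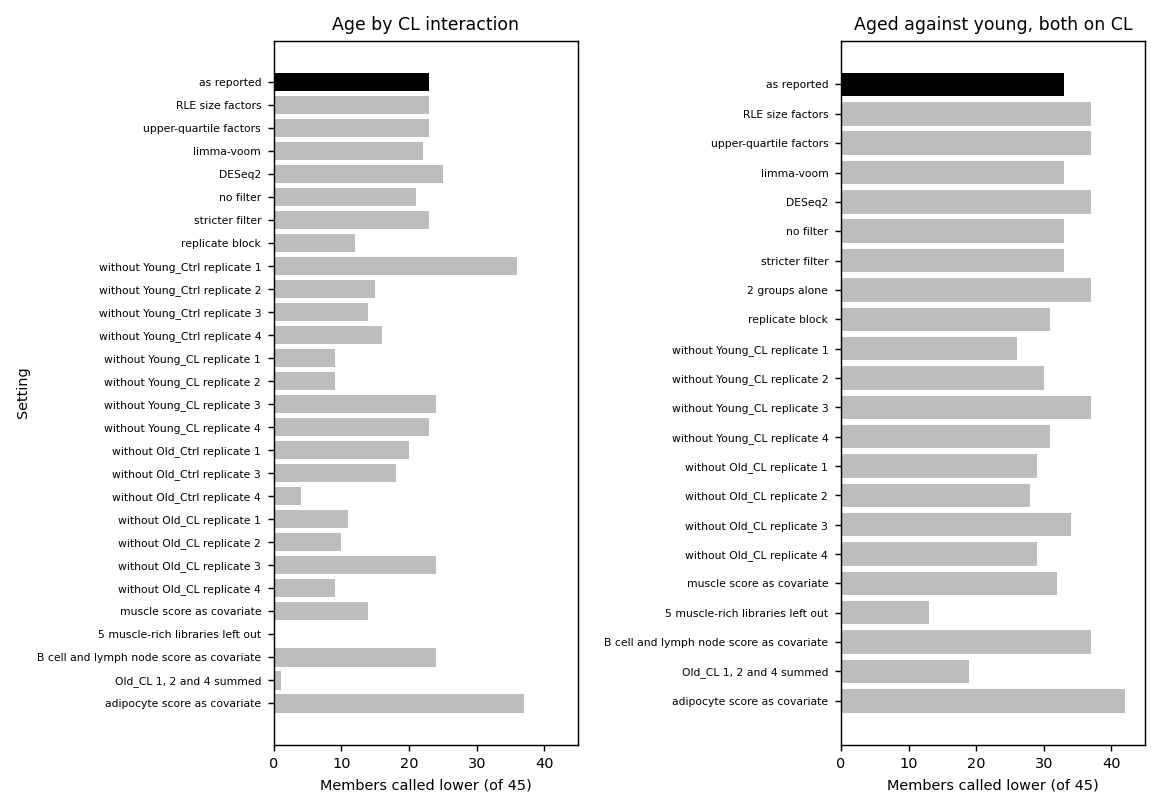
Number of the 45 genes called lower in the age by CL interaction (left) and between the CL groups (right) under each setting, with the reported setting in black. On the left the bars run from 0 (5 muscle-rich libraries left out) to 37 (adipocyte score as covariate), and on the right from 13 to 42.

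Other genes of complex I assembly and of the respiratory chain were also higher with CL. Of 7 assembly genes without an Nduf name, all 7 rose with CL at each age (medians 0.91 and 0.69). Ecsit and Acad9, which join Ndufaf1 in assembly, changed by 1.32 ± 0.12 log2 (edgeR adjusted p = 8.63e-07) and 1.23 ± 0.10 log2 (edgeR adjusted p = 1.92e-07) in young fat, and Foxred1, another assembly factor, by 1.36 ± 0.11 log2 (edgeR adjusted p = 1.93e-07). Their differences between the CL groups ran from -0.19 to 0.12 and their interactions from -0.24 to 0.10 on the log2 scale, and none passed. Among 9 genes that feed ubiquinone by other routes, such as complex II and the electron transfer flavoprotein, 9 rose at each age (medians 1.92 and 1.06), with Etfdh at 2.60 ± 0.21 log2 (edgeR adjusted p = 2.29e-07) in young fat. All 9 complex III genes (2.15 and 1.56) and all 10 complex IV genes (1.97 and 1.22) rose at each age. In the interaction 3 of the 9 entry genes, 4 of 9 complex III and 5 of 10 complex IV genes were lower, and 0 were higher.

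Among genes of mitochondrial mass and import, 12 of 12 were higher in young and 10 of 12 in aged CL fat (medians 1.22 and 0.72). Tomm20 and Hspe1 did not pass in aged fat. Of 10 tested regulators of respiratory genes, 5 rose and 2 fell with CL in young fat (median 0.33), and 4 rose and 3 fell in aged fat (median 0.12). Of all tested genes 21.7% were called higher and 22.1% lower in young fat, and 23.1% and 22.2% in aged fat. Ppargc1a, a coactivator of mitochondrial genes, changed by 1.30 ± 0.23 log2 (edgeR adjusted p = 0.000427) in young and 1.24 ± 0.26 log2 (edgeR adjusted p = 0.00122) in aged fat. Esrra, which encodes an oestrogen-related receptor, changed by 1.21 ± 0.11 log2 (edgeR adjusted p = 5.83e-07) and 0.63 ± 0.12 log2 (edgeR adjusted p = 0.000708), and was the one regulator called in the interaction (-0.59 ± 0.16 log2, edgeR adjusted p = 0.0388). Its relative Esrrg changed by 1.83 ± 0.26 log2 (edgeR adjusted p = 6.51e-05) and 2.09 ± 0.30 log2 (edgeR adjusted p = 9.57e-05). Nrf1, which encodes the factor whose site was searched, differed by -0.22 ± 0.10 log2 (edgeR adjusted p = 0.0675) in young fat and fell by 0.30 ± 0.10 log2 in aged fat (edgeR adjusted p = 0.0249). Between the CL groups 8 of 10 regulators were lower in aged fat, where 19.4% of all tested genes were called lower.

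**Figure D5:**
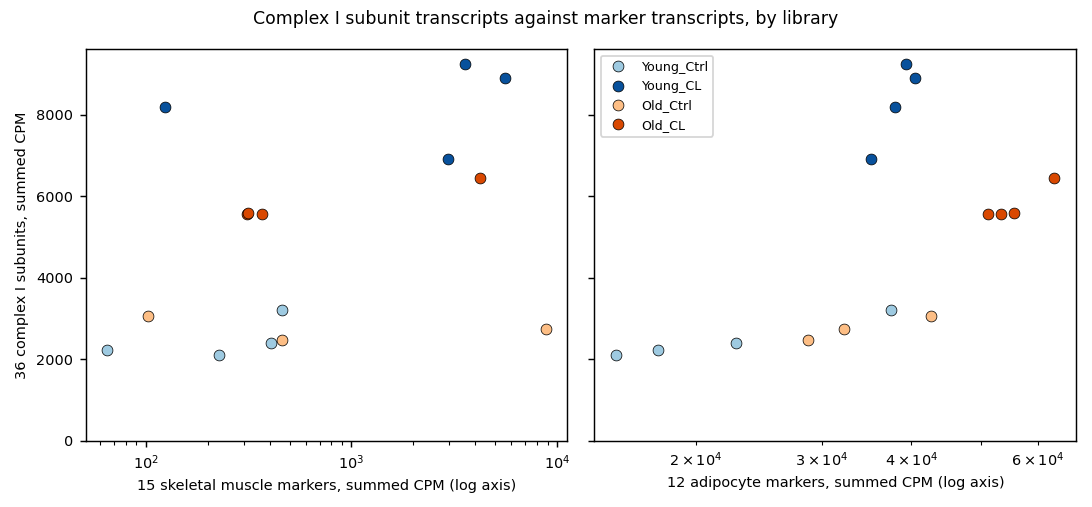
Summed CPM of the 36 subunits (y axis, from 0) against summed CPM of 15 skeletal muscle markers (left) and 12 adipocyte markers (right), both x axes logarithmic, 1 point per library. Vehicle libraries stay at or below 3216 CPM of subunits, and only Old_Ctrl 3 among them (8802 summed CPM of muscle markers) is rich in muscle transcripts. Young_CL 4, at 8204 CPM of subunits, is among the libraries poorest in muscle transcripts.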

How the data were processed

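The authors sequenced polyA RNA from inguinal fat and, per the submitters' processing notes, aligned the reads to mm9 with STAR and counted them per gene with featureCounts of Subread (versions not given in the sources used here). The deposited table of whole-number counts was used as it stands, with 24015 genes in 15 libraries of 6115542 to 51577001 counts. It was fitted with edgeR 4.0.16 in R 4.3.3: filterByExpr by group, TMM scaling, 1 mean per group, all 15 libraries in 1 fit, robust quasi-likelihood F test, and Benjamini-Hochberg adjustment over 15288 genes with a threshold of 0.05. Levels are CPM on TMM-scaled library sizes, log2 changes are given ± SE (absolute change over the square root of F), and marker scores are means of log2(CPM + 0.5). The fit was tested on simulated data.

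The members, gene lists, comparisons and alternatives were chosen with earlier results of these data known. Every Nduf gene may be named. Values in all libraries are given for the 7 core subunits, the 3 largest and 3 smallest changes of each of the 5 comparisons, the 5 smallest interaction p-values, Ndufa4 and Ndufa4l2. Of the genes this rule allows, 1 counts in all totals but is not reported here by name. Up to 3 genes of each other list are named by p, and further names were chosen after their values were seen. As alternatives, upper-quartile and RLE scaling were tried, limma-voom (limma 3.58.1), DESeq2 1.42.0, other filters, the 2 groups alone, a replicate block, each library left out, muscle or lymphoid scores as covariates, muscle-rich libraries left out and close libraries summed. The adipocyte score as a covariate was added after seeing the data. Shared 50-base windows come from GENCODE M21 transcripts and promoters from RefSeq, both of a later assembly than mm9. By windows, 23 of 45 genes share none with another gene and 7 share over 20%: Ndufs3, Ndufb4, Ndufb6, Ndufa12, Ndufa13, Ndufb9 and Ndufs5, whose counts are uncertain.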

Additional observations from a re-analysis of the deposited data

Results flagged for a closer look

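Single libraries stood apart from the rest of their group of 4 by Dixon's test at the 95% level in 12 gene and group combinations, of 132 group tests (groups of 3 are not tested, and chance flags about 1 in 20). Young_Ctrl 1 was the high library in 5: Ndufs1 at 143.9 CPM, Ndufs3 at 94.05 CPM, Ndufa12 at 36.31 CPM, Ndufa3 at 66.69 CPM and Ndufaf1 at 19.73 CPM. Old_CL 3, rich in muscle transcripts, was the high library in 4: Ndufv1 at 417.5 CPM, Ndufa9 at 277.2 CPM, Ndufb2 at 65.89 CPM and Ndufaf7 at 37.15 CPM. The low library was Young_CL 3 in 2, Ndufv1 at 390.2 CPM and Ndufa6 at 167.5 CPM, and Old_CL 4 in 1, Ndufa2 at 142.9 CPM.

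The CL change differed between the ages (age by CL interaction, edgeR adjusted p under 0.05) in 23 genes, all with a smaller rise at 12 months. Of all tested genes 3.77% were called lower. The number of calls depended on single libraries: without Old_Ctrl 4 it was 4, with 1.36% of all genes called lower. On the log2 scale the accessory peripheral subunits differed by -1.15 (Ndufa5), -0.9743 (Ndufs6), -0.9593 (Ndufa2), -0.8699 (Ndufs4), -0.7784 (Ndufab1), -0.6955 (Ndufa6) and -0.613 (Ndufa9). The proximal membrane subunits differed by -1.027 (Ndufc1), -0.8728 (Ndufs5), -0.8166 (Ndufc2), -0.7415 (Ndufa8), -0.7358 (Ndufa11), -0.7141 (Ndufa3) and -0.7057 (Ndufa13). The distal membrane subunits differed by -1.338 (Ndufb4), -1.027 (Ndufb8), -0.9118 (Ndufb7), -0.8359 (Ndufb6) and -0.7651 (Ndufb10). The remaining values were -0.8768 (Ndufv2), -0.8389 (Ndufs7), -0.7136 (Ndufaf5) and -0.7079 (Ndufa4).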

How the results depend on the processing

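For young CL 43 to 45 genes were called higher under each alternative run (44 to 45 with each library left out). With each library left out, 39 to 42 genes were called for aged CL and 0 to 15 for age under vehicle. For age under CL the count was 26 to 37, and for the interaction 4 to 36. Of all genes, these fits called 18.4% to 24.5% higher for young CL, 18.6% to 21.2% for aged CL and 7.04% to 21.8% for age under vehicle. They called 15.3% to 19.3% lower for age under CL and 1.36% to 7.57% for the interaction. For age under vehicle limma-voom called 4 genes and the replicate block 2, with 16.5% and 13.4% of all genes called higher. The lymphoid score as a covariate gave 0 (9 at an unadjusted p under 0.05, 0 by limma-voom), with 0.0916% of all genes higher. The count was also 0 without Young_Ctrl 3, Young_Ctrl 4, Old_Ctrl 3 or Old_Ctrl 4 (1, 2, 5 and 2 at an unadjusted p under 0.05). In these fits limma-voom called 1 without Old_Ctrl 3 and 0 in the others. With the muscle-rich libraries left out, 13 genes were called for age under CL and 0 for the interaction. With the close Old_CL libraries summed, the counts were 19 and 1. For the interaction the replicate block gave 12 and the muscle covariate 14, where 2.26% and 2.47% of all genes were called lower. The adipocyte score gave 37 for the interaction (9.44% of all genes lower) and 23 for aged CL (5.64% higher). The median for age under vehicle was -0.32 with the lymphoid score and -0.02 with the adipocyte score. Where the reported or the alternative value was called, the sign turned in 3 cases: Ndufa2 under vehicle with the lymphoid score (-0.0323), and with the adipocyte score Ndufaf3 for aged CL (-0.0898) and Ndufa7 for age under CL (-0.35). The causes of these shifts were not tested, except that leaving out libraries leaves fewer samples.

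Whether the replicate numbers pair the libraries cannot be settled with groups of 3 or 4. Same-numbered libraries correlated in their deviations from the group means at -0.134 to 0.105 (young CL) and 0.0432 to 0.332 (aged CL). The values were -0.161 to -0.0851 for age under vehicle and -0.236 to 0.343 for age under CL. The same-numbered library was the best partner in 1 of 4, 2 of 3, 0 of 3 and 2 of 4 cases, in that order. Upper-quartile factors moved the median of all tested genes for young CL to -0.154 on the log2 scale and split its calls into 18.6% of genes higher and 29.4% lower, against 21.7% and 22.1% as reported. Young CL called all 45 Nduf genes higher under those factors too. Depth limits Ndufb4 most, with 22 counts in Old_Ctrl 1.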
